A study of Homo sapiens with 32 samples.

Results

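The SOX transcription factors measured here were 10 genes of the 60107 in the count table: SOX2, SOX4, SOX5, SOX6, SOX8, SOX9, SOX11, SOX12, SOX13 and SOX21. They were chosen by name, with the outcome of the camptothecin and ATM comparisons below already known, so their changes in those comparisons are described without a test. The data are 3′ end sequencing libraries of mRNA, 32 in all, in 8 sets of 4, from HEK293T and U2OS cells. HEK293T is a human embryonic kidney line that carries the SV40 large T antigen, and U2OS is a human osteosarcoma line. Camptothecin (CPT) traps topoisomerase 1 on DNA and causes breaks, DMSO is its vehicle, and ATM is the kinase that signals double-strand breaks.

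Of the 8 sets, 4 follow the labels. Libraries 26 to 29 were U2OS cells treated with CPT and libraries 30 to 33 were U2OS cells given DMSO. The labels give these U2OS libraries no times. The study's methods replace the medium 24 h after a drug and harvest the cells 48 h later. Libraries 22 to 25 were HEK293T cells given DMSO for 24 h and left to recover for 48 h, and libraries 18 to 21 are labelled HEK293T ATM KO. The study's methods describe an ATM inhibitor for the RNA of HEK293T cells, and the set is called HEK293T ATM inhibitor here. The ATM mRNA itself lay between 54.5 and 74.1 CPM (counts per 1000000 counts on genes) in libraries 18 to 21 and between 57.8 and 82.0 in libraries 22 to 25, so its level does not separate them.

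Of the other 16 libraries, 14 go against their labels. Libraries 1 to 8 are labelled HEK293T with CPT or DMSO, except library 1 (U2OS WT), but their profiles correlated better with U2OS DMSO (r 0.943 to 0.975) than with HEK293T DMSO (r 0.753 to 0.775). Libraries 10 to 17 are labelled U2OS ATM KO or WT, except library 17 (HEK293T DMSO), but correlated better with HEK293T DMSO (r 0.941 to 0.976) than with U2OS DMSO (r 0.751 to 0.770). They were therefore regrouped. The correlations bear on the cell line alone. Which libraries were treated or knocked out was taken by exchanging the 2 blocks of labels, a choice made with results of these data known, and no label states it. Libraries 2, 4, 6 and 8, labelled HEK293T CPT, are called regrouped U2OS ATM KO, and libraries 1, 3, 5 and 7 regrouped U2OS WT. Libraries 10, 12, 14 and 16, labelled U2OS ATM KO, are called regrouped HEK293T CPT, and libraries 11, 13, 15 and 17 regrouped HEK293T DMSO. Every direction given for these 4 sets rests on that regrouping and not on the labels. If it holds, the regrouped U2OS cells grew untreated for 72 h, and the ATM knockouts came from individual CRISPR clones. The regrouped HEK293T cells were then given CPT or DMSO for 24 h and left to recover for 48 h. ATM mRNA was 53.4 to 68.4 CPM in regrouped U2OS WT and 34.2 to 61.7 CPM in regrouped U2OS ATM KO, which overlap. A 3′ tag can persist when the deleted part lies elsewhere in the gene, so this level is no check of the knockout.

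Each library held 1232674 to 6362433 counts on genes, with a median of 3359463.5. A floor of 3 counts was taken for detection, which corresponds to 0.471 CPM in the deepest library and 2.43 CPM in the shallowest. The U2OS markers COL1A1, CD44, CAV1, LGALS1, ANXA1, S100A6 and TAGLN were all higher in U2OS DMSO than in HEK293T DMSO, while COL1A2 was near 0 in both. Of the HEK293T markers, LIN28B, NEFM and CKB were lower in U2OS, LHX1 and NEFL were higher, and PAX2 did not pass. In the regrouped HEK293T libraries 17.02 to 19.8% of the counts with CPT and 10.9 to 12.4% with DMSO fell on no single gene, so that this share differed between the groups.

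SOX proteins bind the minor groove of DNA through an HMG box related to that of SRY, and bend it. They are sorted into groups by that box. SOX2 (group B1) keeps stem and neural progenitor cells undifferentiated, together with POU factors, and SOX21 (group B2) is a repressor that can oppose it. SOX4, SOX11 and SOX12 (group C) act in neuronal and mesenchymal progenitors. SOX5, SOX6 and SOX13 (group D) lack a transactivation domain of their own, and SOX5 and SOX6 assist SOX9 (group E) in switching on cartilage genes. SOX8 (group E) shares developmental roles with SOX9. In osteosarcoma cells SOX2 has been studied as a stemness factor.

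The promoter windows of the 5 members whose mRNA fell in U2OS cells after CPT are shown first, to let their sequence be set beside those changes. Each holds 250 bases before and 50 bases after the transcription start that RefSeq gives on GRCh38.p14. Windows were found for 7 of the 10 members (SOX2, SOX4, SOX5, SOX6, SOX12, SOX13 and SOX21). Capitals mark 4 motifs searched on both strands: the GC box GGGCGG, the CCAAT box CCAAT, the TATA box TATAAA and the SOX core motif ACAAT.
SOX2 (chr3:181711675-181711974, plus strand): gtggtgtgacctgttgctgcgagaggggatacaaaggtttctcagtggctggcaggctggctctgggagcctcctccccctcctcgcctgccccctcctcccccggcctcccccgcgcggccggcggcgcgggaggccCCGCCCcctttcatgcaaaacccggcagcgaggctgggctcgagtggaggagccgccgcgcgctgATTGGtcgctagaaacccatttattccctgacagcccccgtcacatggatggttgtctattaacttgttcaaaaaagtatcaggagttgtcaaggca
SOX4 (chr6:21593501-21593800, plus strand): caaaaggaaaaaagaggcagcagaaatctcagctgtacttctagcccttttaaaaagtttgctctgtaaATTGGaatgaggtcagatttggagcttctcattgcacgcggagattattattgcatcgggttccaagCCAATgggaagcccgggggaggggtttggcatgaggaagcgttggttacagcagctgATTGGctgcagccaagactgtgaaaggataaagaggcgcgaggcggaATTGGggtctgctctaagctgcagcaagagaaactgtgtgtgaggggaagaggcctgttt
SOX5 (chr12:24562442-24562741, minus strand): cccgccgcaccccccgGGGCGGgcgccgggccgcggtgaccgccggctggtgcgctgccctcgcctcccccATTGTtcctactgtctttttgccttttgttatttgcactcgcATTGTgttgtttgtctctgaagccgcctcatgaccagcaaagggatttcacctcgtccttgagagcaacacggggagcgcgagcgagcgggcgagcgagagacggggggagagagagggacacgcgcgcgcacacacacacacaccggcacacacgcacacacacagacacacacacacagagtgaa
SOX6 (chr11:16738428-16738727, minus strand): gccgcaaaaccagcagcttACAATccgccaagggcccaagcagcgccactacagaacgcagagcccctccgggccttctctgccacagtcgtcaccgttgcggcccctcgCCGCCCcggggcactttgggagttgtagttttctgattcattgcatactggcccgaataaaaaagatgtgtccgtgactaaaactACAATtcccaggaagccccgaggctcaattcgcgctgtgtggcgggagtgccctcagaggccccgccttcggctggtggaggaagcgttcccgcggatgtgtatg
SOX12 (chr20:325302-325601, plus strand): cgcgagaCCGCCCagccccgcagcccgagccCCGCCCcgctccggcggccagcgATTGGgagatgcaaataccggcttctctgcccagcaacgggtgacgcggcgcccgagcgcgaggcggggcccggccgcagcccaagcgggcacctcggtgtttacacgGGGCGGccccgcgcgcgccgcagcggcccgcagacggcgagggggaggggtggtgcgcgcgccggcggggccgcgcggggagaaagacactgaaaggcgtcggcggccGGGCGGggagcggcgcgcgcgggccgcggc
The SOX12 window had 4 GC boxes and 54 CpG dinucleotides, more CpG than 99.5% of the 35116 windows in the table, whose median was 14. The SOX4 window had 4 CCAAT boxes, no GC box and 8 CpG. The SOX2 window had 1 GC box, 1 CCAAT box and 20 CpG, and the SOX5 window had 1 GC box, 2 SOX motifs and 29 CpG. SOX6 has 5 windows in the table, of which the first is shown, with 1 GC box, 2 SOX motifs and 22 CpG. Of its other 4 windows, 3 hold TATA boxes (1, 3 and 2). A GC box was present in 45% of all windows, a CCAAT box in 34.6%, a TATA box in 11.5% and the SOX motif in 27.4%. The 5 windows shown held no TATA box, and no motif of the 4 was present in all of them.

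The level of each SOX mRNA in every library is plotted next. Counts come from the 3′ end of transcripts and were not divided by gene length. The libraries with the highest SOX4 and SOX9 levels held 824 and 386 CPM, and SOX11 and SOX21 never passed 3.44 and 5.82 CPM. At least 3 counts were found in all 32 libraries for SOX2, SOX4, SOX5, SOX6, SOX9, SOX12 and SOX13, in 28 libraries for SOX8, in 17 for SOX21 and in 15 for SOX11. In the order of 3′ tag levels, SOX4 was first in 7 of the 8 sets. Its libraries overlapped with those of SOX9 in regrouped U2OS WT (means of 283 and 280 CPM) and regrouped U2OS ATM KO (287 and 193 CPM). In U2OS CPT it was second, at 207 ± 27.6 CPM (SD, n = 4) against 223 ± 37.0 for SOX9, and these overlapped.

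**Figure D1:**
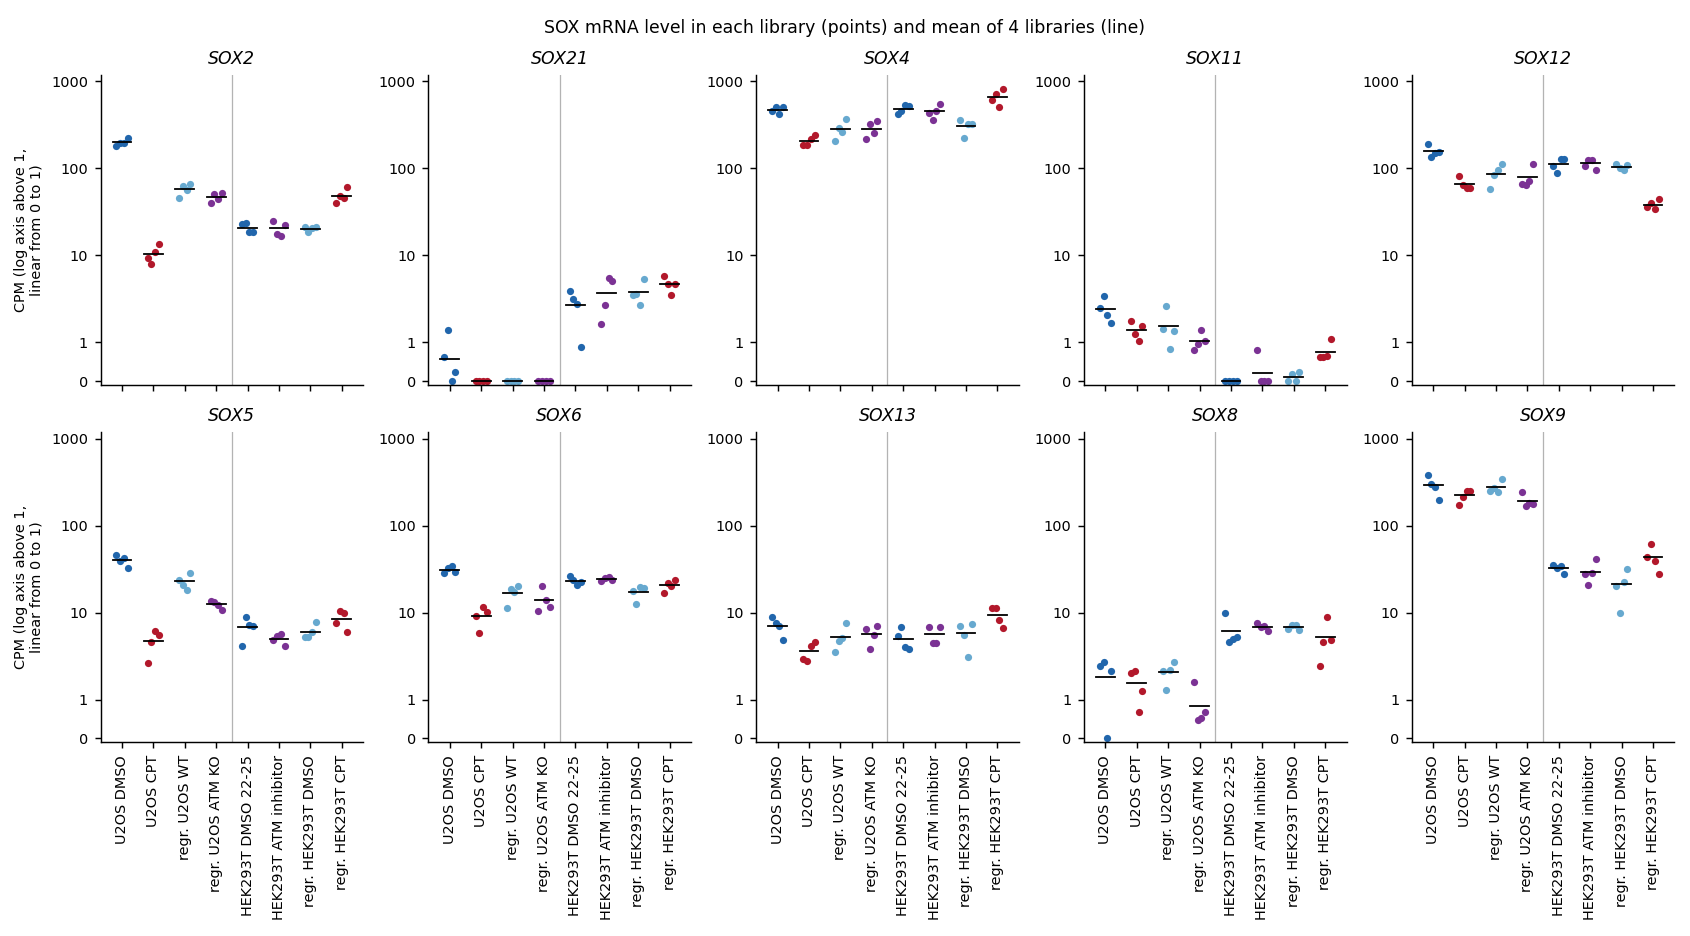
Level of 10 SOX mRNAs in CPM (vertical axis, logarithmic above 1 and linear from 0 to 1) in 8 sets of 4 libraries. Points are libraries and lines are means; U2OS sets stand left of the grey line and HEK293T sets right of it, and "regr." marks sets regrouped against their labels. SOX2 spans 8.06 to 222 CPM over the U2OS libraries, while SOX4 stays between 184 and 824 CPM in every library.

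The first comparison asks what CPT did to the family in U2OS cells. SOX2 fell from about 199 to about 10 CPM, and SOX5, SOX6, SOX12 and SOX4 fell with it. SOX9 and SOX8 overlapped with the controls and were not called, and no member rose. A gene was called when its fold change exceeded 2 (log2 over 1) at an adjusted p under 0.05 in edgeR's quasi-likelihood test across all genes. By this rule 5 of 10 members were lower and 0 higher. Of the 19080 genes tested, 13.5% were called, 7.97% higher and 5.5% lower. As the members were picked with these results known, nothing is read from that difference. The median log2 fold change was -1.06 over the 10 members, also with SOX21 at the bound given below, and 0.01 over all genes.

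SOX2, the stem cell factor of group B1, had the largest change. Its libraries held 182, 196, 195 and 222 CPM with DMSO and 9.42, 8.06, 11.1 and 13.4 CPM with CPT. The highest treated library was far below the lowest control, and the counts behind it were 26 to 43 against 570 to 925. The log2 fold change was -4.08 ± 0.16 (SE), a fall of 16.9-fold. Among the 14918 genes with a mean over 1 CPM, 0.838% had a larger change in either direction. SOX21, the group B2 repressor, was hardly detected in U2OS: the DMSO libraries held 2, 4, 0 and 1 counts and the CPT libraries held 0. That is a level at least 2.16-fold higher with DMSO, with 3 counts over the 4 CPT libraries as the floor.

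Of group C, SOX4 fell by about the size of the cutoff. It held 460, 502, 428 and 508 CPM with DMSO and 186, 184, 217 and 242 CPM with CPT, without overlap, with a log2 fold change of -1.03 ± 0.12. Without library 26, 27 or 33 it was no longer called. SOX12 held 191, 135, 152 and 155 CPM with DMSO and 81.2, 63.9, 59.6 and 59.3 with CPT. The groups did not overlap and the log2 fold change was -1.09 ± 0.13. SOX11, the third of the group, rested on 7 to 10 counts a library with DMSO and 3 to 6 with CPT, and did not pass.

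Of group D, SOX5 and SOX6 fell, and SOX13 did not pass. SOX5 held 45.7, 39.6, 42.2 and 32.4 CPM with DMSO and 2.65, 4.65, 6.23 and 5.61 CPM with CPT. All treated libraries lay far below the controls, and the log2 fold change was -2.89 ± 0.20, a fall of 7.42-fold. SOX6 held 28.7, 32.3, 34.3 and 29.3 CPM with DMSO against 9.12, 5.89, 11.8 and 10.3 CPM with CPT, again without overlap. Its log2 fold change was -1.58 ± 0.18. SOX13 lay just apart in the 2 groups, at 4.81 to 8.95 CPM with DMSO and 2.79 to 4.68 CPM with CPT, with a log2 fold change of -0.77 ± 0.28 that stayed inside the fold cutoff.

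Of group E, SOX9, the chondrocyte regulator, held 386, 303, 282 and 199 CPM with DMSO and 174, 216, 255 and 249 CPM with CPT. The groups overlapped, and the log2 fold change was -0.20 ± 0.13. SOX8 rested on 0 to 9 counts a library in both groups, with a log2 fold change of -0.05 ± 0.54. SOX5 and SOX6, which assist SOX9 on cartilage genes, were thus called lower while SOX9 itself was not. The groups did not overlap for 6 of 10 members, and for 31.3% of all genes.

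The size of these falls depends on which U2OS controls are used. The DMSO libraries 30 to 33 lay above the regrouped U2OS WT libraries 1, 3, 5 and 7 without overlap for the 5 members that fell and for no other member. The share of all genes that lie apart between these 2 sets was not determined, so nothing is read from this count. SOX2 was 3.44-fold higher in the DMSO libraries (199 ± 16.7 against 57.8 ± 8.96 CPM), SOX6 1.84-fold, SOX12 1.82-fold, SOX5 1.74-fold and SOX4 1.68-fold. SOX11 and SOX13 were 1.56-fold and 1.34-fold higher with overlap, and SOX21 had 7 counts in all against 0. SOX9, at 293 ± 76.6 and 280 ± 48.6 CPM, overlapped. With the regrouped U2OS WT libraries as controls for the CPT libraries, 2 members were called in place of 5, SOX2 with a log2 fold change of -2.45 ± 0.16 and SOX5 with -2.23 ± 0.22. Of all genes 2922 of 18621 tested were called with these controls, and 2569 of 19080 with the DMSO controls. SOX6 then had -0.88 ± 0.20, SOX12 -0.39 ± 0.13 and SOX4 -0.43 ± 0.13. The 2 control sets also differ in vehicle and experiment, which cannot be told apart from the difference in level. Scaling mattered less: without the TMM scaling that the fold changes use, the median gene moved by -0.17 and the share of calls that were higher went from 59.2% to 44.9%, while the 5 members remained called and SOX21 joined them.

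The second comparison asks the same of HEK293T cells, with libraries 10, 12, 14 and 16 against 11, 13, 15 and 17. SOX2 and SOX4 were higher with CPT, by a little over 2-fold, SOX9 was higher by 2.01-fold with overlapping groups, and SOX12 was lower by 2.74-fold. Few SOX11 counts appeared. Of the 10 members, 4 were called higher and 1 lower, against 9.52% and 4.45% of the 19464 genes tested and 14% in either direction. The median log2 fold change was 0.53 over the members and 0.04 over all genes. Markers of U2OS moved in the same comparison: 3 of 6 tested were higher (ANXA1 2.82 ± 0.19, LGALS1 1.94 ± 0.22 and CD44) and 0 lower. DESeq2 called 2. CD44 went from 2 to 11 counts in all, a ratio of 7.17 with a 95% counting interval of 1.57 to 66.6. COL1A1 was at 0.20 ± 0.17. The 8 markers summed to 106 to 152 CPM with CPT and 46.9 to 59.1 CPM with DMSO, against 3276 to 4228 CPM in U2OS DMSO, and COL1A2 was at 0 in all 4 DMSO libraries. Of the HEK293T markers 1 of 6 was higher, LHX1, and 0 were lower. The part of these markers in the result was not tested. The study's methods give a higher CPT concentration for U2OS than for HEK293T cells in the proteomics that was collected in parallel, so the lines are set side by side and their responses are not compared by a test.

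SOX2 held 21.1, 18.8, 20.4 and 21.1 CPM in regrouped HEK293T DMSO and 39.8, 48.8, 46.1 and 60.5 CPM in regrouped HEK293T CPT. The groups did not overlap, and the log2 fold change was 1.25 ± 0.14. Its direction was thus opposite to that in U2OS, and the level with CPT was higher here (48.8 ± 8.67 CPM) than in U2OS CPT (10.5 ± 2.304 CPM). SOX21 stayed at 3.52 to 5.82 CPM with CPT and 2.67 to 5.32 CPM with DMSO, overlapping.

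SOX4 held 363, 222, 324 and 321 CPM with DMSO and 616, 717, 509 and 824 CPM with CPT, without overlap and with a log2 fold change of 1.10 ± 0.14. HEK293T DMSO libraries 22 to 25 held 420 to 530 CPM of SOX4, which overlaps with these CPT libraries. The 824 CPM of library 16 was the highest SOX4 level of the 32 libraries. SOX12 moved the other way, from 111, 101, 95.1 and 109 CPM to 35.8, 39.8, 33.9 and 44.3 CPM. Its log2 fold change was -1.45 ± 0.12, and it was the only member lower with CPT by the call rule in both U2OS and the regrouped HEK293T libraries. SOX11 had 2, 2, 2 and 7 counts with CPT against 0, 1, 0 and 1 with DMSO. The ratio of the summed counts, each over its set's total, was 8.48, with a 95% exact counting interval of 1.92 to 77.4.

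SOX9 held 20.2, 9.98, 22.9 and 32.1 CPM with DMSO and 44.1, 62.0, 39.0 and 28.3 CPM with CPT. One treated library lay below the highest control, and the log2 fold change of 1.01 ± 0.24 only just passed the cutoff. HEK293T DMSO libraries 22 to 25 held 27.8 to 35.6 CPM of SOX9, which also overlaps with the CPT libraries. Without library 10, 12, 11 or 13 in turn, SOX9 was no longer called. SOX4 lost its call without library 16 or 13, and SOX11 without library 16 or 11. DESeq2 and filterByExpr did not call SOX11, and SOX9 was not called without a filter or in a fit of all 32 libraries. SOX2 and SOX12 were called with each library left out. SOX5, SOX6 and SOX13 of group D had log2 fold changes of 0.44 ± 0.23, 0.26 ± 0.17 and 0.63 ± 0.26, and SOX8 -0.44 ± 0.27, none past the rule. The groups did not overlap for 4 of 10 members, and for 31% of all genes.

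**Figure D2:**
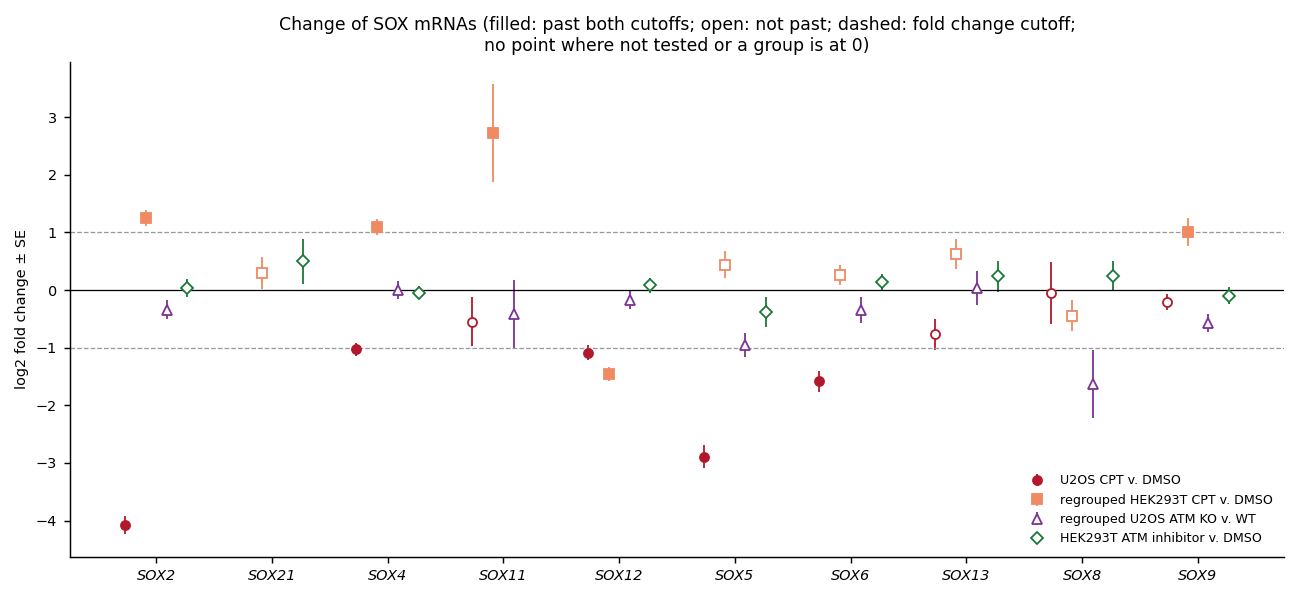
Log2 fold change of each SOX mRNA (vertical axis) with its standard error in 4 comparisons of 4 against 4 libraries. Filled points are past the call rule, open points are not, dashed lines stand at a log2 fold change of -1 and 1, and no point is drawn where the gene was not tested or 1 group held no counts; SOX11 rests on 2 counts in regrouped HEK293T DMSO. SOX2 stands at -4.08 in U2OS and at 1.25 in regrouped HEK293T after CPT, while SOX12 stands at -1.09 and -1.45.

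The sets called ATM knockout in U2OS and ATM inhibitor in HEK293T were each compared with their controls. If the regrouping holds, the knockouts came from individual CRISPR clones. Differences that belong to a clone then cannot be told apart from those of the knockout, for members and listed genes alike. In regrouped U2OS ATM KO against WT no member was called, nor by DESeq2, against 5.24% of the 18591 genes tested (2.8% higher and 2.44% lower), and the median over the 9 members tested was -0.35 (all genes 0.04). SOX8 had the largest change, -1.64 ± 0.59, past the fold cutoff but not called. It rested on 3, 3, 8 and 10 counts in WT and 2, 1, 3 and 4 in KO, and the likelihood ratio test, the fit of all 32 libraries and the fit without library 2 called it lower. SOX5 held 24.0, 20.8, 18.3 and 28.9 CPM in WT and 13.8, 13.5, 12.1 and 10.7 CPM in KO. The groups did not overlap, and the log2 fold change of -0.95 ± 0.21 stopped short of the cutoff. SOX5 passed it without library 4 or 5. SOX9 held 248, 274, 246 and 350 CPM in WT and 243, 168, 183 and 177 CPM in KO, without overlap, at -0.58 ± 0.15. Groups did not overlap for 2 of 9 members and 13.6% of all genes.

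SOX2 held 45.9, 63.2, 56.1 and 66.0 CPM in regrouped U2OS WT and 39.8, 51.0, 44.3 and 51.7 CPM in KO. These overlapped, at a log2 fold change of -0.34 ± 0.16. SOX4 was at 0.00 ± 0.16, but varied within both groups, from 207 to 372 CPM in WT and from 215 to 352 CPM in KO. Libraries 1 and 2, the shallowest of the 32, were the lowest of their groups for SOX4. SOX21 had no counts in these 8 libraries.

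In HEK293T cells with the ATM inhibitor against DMSO no member was called, and 0% of the 18413 genes tested were, though 1019 had an unadjusted p under 0.05. DESeq2 also called 0 genes and edgeR's likelihood ratio test 2. The log2 fold changes of the 9 members tested ran from -0.38 ± 0.26 (SOX5) to 0.50 ± 0.38 (SOX21). SOX2 held 24.7, 17.8, 16.9 and 22.6 CPM with the inhibitor and 22.7, 23.7, 18.5 and 18.7 CPM without, at 0.04 ± 0.16. SOX4 held 431, 362, 460 and 556 CPM with it and 420, 458, 530 and 527 CPM without, at -0.04 ± 0.11. The 2 groups overlapped for all 10 members, and failed to overlap for 3.07% of all genes.

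The lines without damage were set side by side too. These libraries are the controls of comparisons that chose the members, so the members' values are described here without a test. U2OS DMSO held more SOX2, SOX9, SOX5 and SOX11 than HEK293T DMSO and less SOX8 and SOX21, so that 6 of 10 members were called, 4 higher and 2 lower. This stands against 39.9% of the 19739 genes tested, 21.8% higher and 18.1% lower. With no scaling the median gene moved by -0.24 and the share of calls higher in U2OS went from 54.6% to 45.0%. The same 6 members were called in the same directions, among 8190 of 19739 genes.

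SOX2 was 182 to 222 CPM in U2OS and 18.5 to 23.7 CPM in HEK293T (log2 fold change 3.48 ± 0.13). SOX9 was 199 to 386 CPM against 27.8 to 35.6 CPM (3.37 ± 0.14). SOX5 was 32.4 to 45.7 CPM against 4.19 to 8.85 CPM (2.75 ± 0.18). All 3 were thus higher in each U2OS library than in any HEK293T library. SOX11 had 7 to 10 counts in the U2OS libraries and 0 in the 4 HEK293T libraries, a level at least 11.05-fold higher. SOX8 was lower in U2OS, at 0 to 2.75 CPM against 4.57 to 9.87 CPM (-1.51 ± 0.40). SOX21 was lower as well, with 0 to 4 counts against 3 to 13 (-2.09 ± 0.59), although its groups overlapped.

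The remaining members stayed inside the fold cutoff. SOX4, the most abundant, was 428 to 508 CPM in U2OS and 420 to 530 CPM in HEK293T (0.20 ± 0.11). SOX6, SOX12 and SOX13 were higher in U2OS by 0.64 ± 0.14, 0.71 ± 0.12 and 0.70 ± 0.26 on the log2 scale. The groups did not overlap for 7 of 10 members and for 55.5% of all genes.

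The other pair of control sets, regrouped U2OS WT against regrouped HEK293T DMSO, called the same 6 members in the same directions. Of all genes 8671 of 19435 tested were called there, so nothing is read from the count of members. SOX2 differed less there, by 1.87 ± 0.15 on the log2 scale, and SOX9 more, by 4.10 ± 0.19. SOX5 stood at 2.28 ± 0.21 and SOX8 at -1.34 ± 0.32. SOX21 had 0 counts in the 4 U2OS libraries and 12 to 24 counts in the HEK293T libraries, at least 13.8-fold higher in HEK293T. Within HEK293T, libraries 22 to 25 held more SOX4 (1.57-fold) and SOX6 (1.35-fold) than the regrouped DMSO libraries, without overlap, while SOX2 was 1.03-fold apart and overlapped. The share of all genes that lie apart between these sets was not determined.

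**Figure D3:**
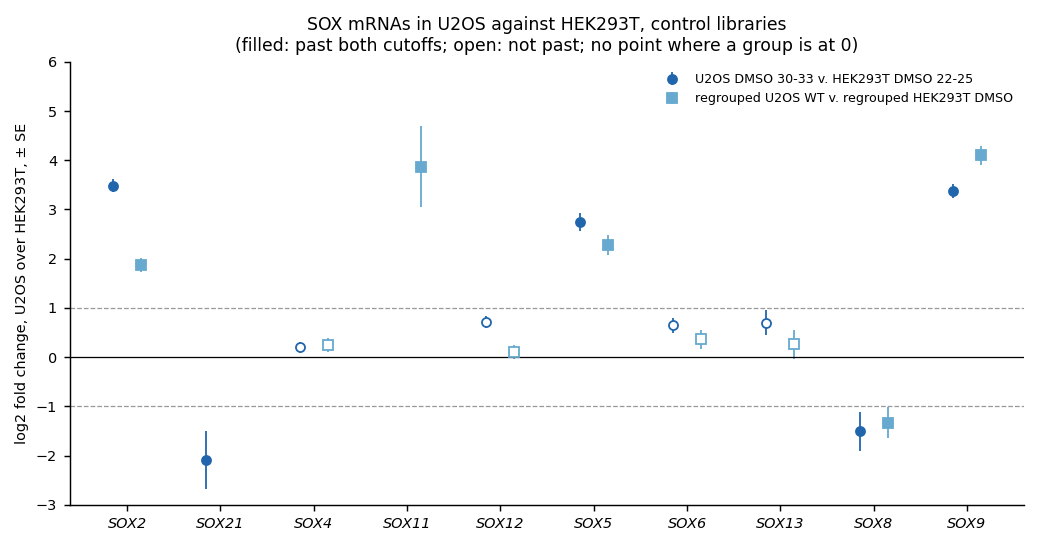
Log2 fold change of each SOX mRNA in U2OS over HEK293T control cells (vertical axis) with its standard error, for libraries 30 to 33 against 22 to 25 (circles) and for the regrouped U2OS WT against regrouped HEK293T DMSO libraries (squares). Filled points are past the call rule, and no point is drawn where 1 group held no counts. SOX2, SOX5 and SOX9 lie above 1 in both pairs, SOX8 lies below -1 in both, and SOX4 lies at 0.20 and 0.24.

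Other SOX genes were scarce. These and the gene lists below were chosen with earlier results of these data known. Their adjusted p values are therefore descriptions and no independent support. Of 9 looked at, SOX1, SOX10 and SOX30 never reached 3 counts in a library. In the comparison of the lines SOX7, an endothelial group F factor, was lower in U2OS (-3.31 ± 0.37, edgeR adjusted p = 1.50e-09). SOX3, a close relative of SOX2, was at 0 in U2OS DMSO and at 3 to 5 counts in HEK293T DMSO, at least 5.47-fold higher (edgeR adjusted p = 5.44e-04). SOX17 had 39 counts over the U2OS DMSO libraries and 1 over the HEK293T libraries (edgeR adjusted p = 4.66e-07), a ratio of 40.4 with a 95% counting interval of 6.84 to 1636. In the other 4 comparisons 0 of these 9 genes were called by edgeR or by DESeq2, among 3 to 5 tested, of which 0 to 2 had an unadjusted p under 0.05.

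Transcripts beside the SOX genes were followed too. SOX2 lies inside an intron of the long noncoding gene SOX2-OT, on the same strand, with no exon shared in GENCODE 29. SOX2-OT held 15, 11, 24 and 14 counts in the U2OS DMSO libraries and 3, 2, 2 and 6 with CPT, and fell with a log2 fold change of -1.99 ± 0.42 (edgeR adjusted p = 4.00e-04). SOX9-AS1 fell as well (-1.47 ± 0.46, edgeR adjusted p = 0.0141), while SOX9 did not pass. SOX21-AS1 went from 8 counts in all to 0, at least 2.47-fold higher with DMSO (edgeR adjusted p = 0.0352). All 3 of the transcripts tested were lower in U2OS CPT, of which DESeq2 called 2, and of 4 tested in regrouped HEK293T CPT only SOX1-OT was called, higher (1.97 ± 0.61, edgeR adjusted p = 0.0153), where DESeq2 called 0. In GENCODE 29 none of the 10 members shares exonic bases with another gene in the last 500 bases of its annotated span. Elsewhere SOX4, SOX6 and SOX11 share some with other genes. The assay reads 3′ ends, but the positions of the reads were not examined. Whether counting used the strand was not given in the sources used here.

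Genes that work with SOX2, or mark progenitors, were tested from a list of 18. In U2OS CPT 0 of the 7 tested were called by edgeR or by DESeq2, though 2 had an unadjusted p under 0.05, and their median log2 fold change was -0.21. In regrouped HEK293T CPT 2 of 14 were higher: NES, the progenitor filament nestin (1.52 ± 0.18, edgeR adjusted p = 5.84e-07), and KLF4, a pluripotency factor (1.22 ± 0.35, edgeR adjusted p = 0.00940), and DESeq2 called 3. In regrouped U2OS ATM KO 2 of 8 were higher, while DESeq2 called 1. POU3F2, a neural POU factor, rose by 2.27 ± 0.49 (edgeR adjusted p = 6.02e-04), and PAX6 went from 0 to 10 counts in all, at least 2.47-fold higher (edgeR adjusted p = 0.0471). Library 8 held 6 of these PAX6 counts. POU3F2 stood at 74.2 CPM in HEK293T DMSO and 1.03 CPM in U2OS DMSO. Of the HEK293T markers 1 of 6 was higher in regrouped U2OS ATM KO, PAX2 (1.43 ± 0.34), and 0 lower. The 6 markers summed to 144 to 256 CPM in KO and 136 to 206 CPM in WT. Their part in the result was not tested. Between the lines 3 of 12 were higher in U2OS and 8 lower. PAX6, the eye and forebrain factor, was at least 208-fold lower in U2OS DMSO, FOXD3 at least 81.1-fold lower and POU3F1 at least 16.7-fold lower, each with 0 counts in U2OS (edgeR adjusted p of 2.74e-19, 6.28e-15 and 1.14e-07). The 3 higher in U2OS, named after their values were seen, were NES, at 204 ± 4.37 against 8.60 ± 1.59 CPM (4.78 ± 0.14), SALL4 (4.30 ± 0.36) and NOTCH1 (1.33 ± 0.16), with edgeR adjusted p of 1.54e-24, 1.33e-12 and 4.70e-09.

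Cartilage genes that SOX9 binds with SOX5 and SOX6 did not move as 1 group. In U2OS CPT 1 of 11 tested was higher and 2 lower. COL27A1, a fibrillar collagen, rose by 1.98 ± 0.14 (edgeR adjusted p = 5.45e-13). ACAN, the cartilage proteoglycan aggrecan, fell by 1.87 on the log2 scale (SE 0.34, edgeR adjusted p = 5.59e-05), and HAPLN1, its link protein, went from 419 ± 34.8 to 140 ± 9.90 CPM (-1.41 ± 0.11, edgeR adjusted p = 7.60e-12). ACAN was also lower in regrouped U2OS ATM KO (-2.20 ± 0.32, edgeR adjusted p = 7.04e-07), the 1 gene called of 10. In regrouped HEK293T CPT 2 of 11 were higher, both near 1 CPM, while DESeq2 called 1. COL9A1 went from 3 to 16 counts in all (edgeR adjusted p = 0.0133), a ratio of 6.96 with a 95% counting interval of 1.99 to 37.2, and COL11A2 rose by 1.88 ± 0.69 (edgeR adjusted p = 0.0383). Between the lines 7 of 12 were higher in U2OS and 3 lower, led by COL11A1 (7.43 ± 0.17, edgeR adjusted p = 1.94e-27) and HAPLN1 (5.51 ± 0.19, edgeR adjusted p = 5.98e-23). COL2A1, the main cartilage collagen, was lower, with 3 counts over the U2OS DMSO libraries and 172 over the HEK293T libraries, a ratio of 55.3 with a 95% counting interval of 18.6 to 271 (edgeR adjusted p = 4.05e-12).

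Of 7 genes listed as downstream of SOX4 and SOX11, 6 were tested in regrouped HEK293T CPT, with a median log2 fold change of 2.27. Of these 6, 5 were called higher, by DESeq2 as well. The other, TEAD2, named after its values were seen, went from 28.3 ± 4.08 to 15.4 ± 3.06 CPM, at -0.90 ± 0.17 (edgeR adjusted p = 3.41e-04), inside the fold cutoff. MAP2, a dendrite microtubule protein, went from 0.866 ± 0.389 to 12.3 ± 2.39 CPM (3.79 ± 0.30, edgeR adjusted p = 2.17e-09). TUBB3, the neuronal tubulin, rose by 2.91 ± 0.53 (edgeR adjusted p = 1.72e-04) and DCX, doublecortin, by 2.50 ± 0.56 (edgeR adjusted p = 0.00132). In U2OS CPT 2 of 6 were higher and 2 lower, and DESeq2 called 3. STMN2, a growth cone protein, went from 0.954 ± 0.271 to 18.6 ± 2.76 CPM (4.41 ± 0.28, edgeR adjusted p = 7.44e-14), and DCX from 0 to 6 counts in all, at least 2.16-fold higher (edgeR adjusted p = 0.0306). PROX1, a homeobox factor, fell (-1.72 ± 0.25, edgeR adjusted p = 1.92e-06), and so did MAP2 (-1.31 ± 0.20, edgeR adjusted p = 3.84e-06), named here because it was called in the other comparisons. In regrouped U2OS ATM KO MAP2 was higher (1.98 ± 0.18, edgeR adjusted p = 1.93e-12) and STMN2 lower (-2.52 ± 0.71, edgeR adjusted p = 0.0107), with 3 of 5 not called. Between the lines MAP2 and TUBB3 were the 2 of 5 called, both higher in U2OS (4.21 ± 0.27 and 2.43 ± 0.49, edgeR adjusted p of 2.41e-15 and 5.86e-05).

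Osteoblast genes were looked at because U2OS comes from bone. In U2OS CPT 0 of 7 tested were called by edgeR or by DESeq2, and 2 had an unadjusted p under 0.05. In regrouped HEK293T CPT 3 of 7 were higher and 1 lower, while DESeq2 called 1. ALPL, a phosphatase of mineralising bone, named after its values were seen, had 10 to 32 counts with DMSO and 5 to 8 with CPT (-1.05 ± 0.36, edgeR adjusted p = 0.0280). RUNX2, the osteoblast master factor, was higher there (1.59 ± 0.44, edgeR adjusted p = 0.00735) and PHEX too (1.17 ± 0.45, edgeR adjusted p = 0.0443), and SPP1 went from 2 to 14 counts in all, a ratio of 9.13 with a 95% counting interval of 2.10 to 82.8. COL1A1, the bone collagen, was lower in regrouped U2OS ATM KO, at 1171 ± 193 against 2817 ± 365 CPM (-1.29 ± 0.18, edgeR adjusted p = 1.34e-07), the 1 gene called of 5. Between the lines 3 of 7 were higher in U2OS and 2 lower, with COL1A1 at 7.08 ± 0.15 (edgeR adjusted p = 2.94e-28) the highest. DLX5 was lower, with 1 count over the U2OS DMSO libraries and 66 over the HEK293T libraries, a ratio of 63.7 with a 95% counting interval of 11.04 to 2554 (edgeR adjusted p = 1.28e-08). SPP1, osteopontin, had 203 counts over the U2OS DMSO libraries and 2 over the HEK293T libraries, a ratio of 105 with a 95% counting interval of 28.7 to 874.

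Targets of p53, which rise after DNA damage, were followed beside the SOX genes. As the regrouping was made with these data known, they are no independent check of it. Whether p53 itself acted on them was not tested in either line, and HEK293T carries the SV40 large T antigen. In U2OS CPT 6 of 8 were higher and 0 lower, with GDF15 at 3.63 ± 0.16, FAS at 2.76 ± 0.16 and CDKN1A at 2.24 ± 0.11 (edgeR adjusted p of 8.28e-18, 7.02e-15 and 1.85e-16). In regrouped HEK293T CPT 4 of 8 were higher and 0 lower, with GDF15 at 2.94 ± 0.38, CDKN1A at 2.17 ± 0.22 and MDM2 at 1.14 ± 0.13 (edgeR adjusted p of 2.91e-06, 8.79e-08 and 3.22e-07). In regrouped U2OS ATM KO GDF15 was the 1 called of 8 (1.25 ± 0.17, edgeR adjusted p = 1.64e-07). Between the lines 4 of 8 were higher in U2OS DMSO, led by TP53I3 at 2.59 ± 0.22, GDF15 at 1.96 ± 0.21 and CDKN1A at 1.93 ± 0.15 (edgeR adjusted p of 3.91e-12, 7.93e-10 and 2.24e-13). With the ATM inhibitor 0 genes of these lists were called by edgeR's quasi-likelihood test or by DESeq2, and at an unadjusted p under 0.05 stood 2 cartilage genes, 2 p53 targets and no gene of the other lists.

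The genes whose level ran most like that of each member were sought over the 8 U2OS CPT and DMSO libraries, among 9637 genes with a mean log2 CPM over 3. The 8 libraries fall into 2 groups, so a high correlation mostly says that a gene fell with CPT as evenly as the member did. CXCL14, a chemokine, was among the 3 most like SOX2 (Pearson r 0.997), going from 1842 to 70.7 CPM, with PIH1D1 (r 0.998) and CEP350 (r 0.997). For SOX5 they were ZNF618, MATR3 and MND1 (r 0.998, 0.997 and 0.997), and for SOX6 SECISBP2, PLCE1 and MSL3P1 (r 0.999, 0.994 and 0.992). For SOX4 they were MCM4, a replication helicase subunit, GPR161 and PTMS (r 0.996, 0.995 and 0.995). RBBP4 and KLHL42 were among those most like SOX12 (r 0.996 and 0.995). SOX9, which did not pass, had SNRPD3, DR1 and TIFA (r 0.973, 0.972 and 0.969), and 15 genes above r 0.95, while SOX2 had 646.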

How the data were processed

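RNA of the 32 libraries was made into Lexogen QuantSeq 3′ FWD libraries with molecular identifiers. The authors processed the reads with Lexogen's QuantSeq UMI pipeline and deposited raw counts per gene, not normalized. The aligner, genome build, annotation and strand setting are not given in the sources used here. The 5 summary rows (unassigned reads, 10.9 to 40.6% of each library) and 92 spike-in rows were left out, and symbols were found for 56104 of the 60107 Ensembl identifiers. No 2 libraries of a set agreed within sampling noise (chi-square per degree of freedom 1.82 to 24.8 over 48 pairs).

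Sets of 4 libraries followed the labels, or the regrouping given with the results. A table of the study that holds control levels was matched to all 35960 choices of 4 libraries. The nearest were libraries 22 to 25, 1, 3, 5 and 7, and 11, 13, 15 and 17, the last only narrowly ahead of the next choice. Each comparison was fitted over its own 8 libraries in edgeR 4.0.16 (R 4.3.3) with TMM scaling, a filter that kept genes counted more than 1 time in 2 or more of the libraries, and the quasi-likelihood test. The study's methods use the likelihood ratio test with the same filter and cutoffs, tried as an alternative, as was DESeq2 1.42.0. The scripts' fit was tested on simulated data. A gene was called past a log2 fold change of 1 in size when its p, adjusted by Benjamini-Hochberg over the genes tested, was under 0.05. The members and gene lists were chosen with earlier results of these data known, so no adjusted p of a listed gene is independent support. Members were all named, and of each list up to 3 called genes with the largest change in a comparison. One gene of a list of most similar genes is not reported here. CPM are not TMM scaled. Errors are SD of CPM or SE of log2 fold changes. The labels do not say whether the 4 libraries of a set were separate cultures, and the study's methods speak of independent repeats. Promoters are from RefSeq (GRCh38.p14) and gene models from GENCODE 29. Intervals and floors cover counting error only.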

Additional observations from a re-analysis of the deposited data

Results flagged for a closer look

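In 4 of 76 sets of 4 libraries with a member's counts, 1 library stood apart from the other 3 by more than Dixon's critical share of the whole range, where chance gives about 3.8 (1 in 20). Library 22 held 9.87 CPM of SOX8 against 4.57 to 5.33 CPM in the other HEK293T DMSO libraries. Library 18 held 0.814 CPM of SOX11, which is 3 counts, against 0 in the other ATM inhibitor libraries. Library 16, the deepest, held 1.10 CPM of SOX11 against 0.612 to 0.640 CPM in the other regrouped HEK293T CPT libraries. Library 8 held 114 CPM of SOX12 against 65.0 to 71.5 CPM in the other regrouped U2OS ATM KO libraries. Library 8 also differed from libraries 2, 4 and 6 across genes, with a chi-square per degree of freedom of 12.4, 23.8 and 24.8. Among libraries 2, 4 and 6 it was 3.03 to 4.70.

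Set against the controls of the same comparison, SOX2 and SOX4 moved in opposite directions after CPT in the 2 lines, in every library. For SOX4 this depends on the control set. Its 509 to 824 CPM in regrouped HEK293T CPT overlapped with 420 to 530 CPM in HEK293T DMSO libraries 22 to 25. Its 184 to 242 CPM in U2OS CPT overlapped with 207 to 372 CPM in regrouped U2OS WT. SOX2 had a log2 fold change of -4.08 in U2OS and 1.25 in regrouped HEK293T, and SOX4 had -1.03 and 1.10. This difference was not tested, since both contrasts were known when the members were chosen.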

How the results depend on the processing

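The alternatives were the likelihood ratio test, DESeq2, RLE size factors, filterByExpr, no filter, all 32 libraries in 1 fit, no cutoff on the fold change and each library left out. No scaling, and regrouped U2OS WT as controls of U2OS CPT, were added after seeing the data. Without scaling, 6 members were called in U2OS CPT in place of 5, as with the likelihood ratio test and the fit of all 32 libraries, each adding SOX21. Over all genes these 3 fits called 2786 of 19080, 2964 of 19080 and 2600 of 23638, and the main fit 2569 of 19080. With regrouped U2OS WT as controls, 2 members were called, and 2922 of 18621 genes.
Leaving out 1 library gave 4 to 6 members in U2OS CPT, where SOX4 was lost without library 26, 27 or 33. Over all genes these fits called 2411 to 2550 of 18693 to 18852 tested. In regrouped HEK293T CPT it gave 3 to 5 members, among 2360 to 2599 genes called of 18660 to 19274. In regrouped U2OS ATM KO it gave 0 to 1, among 771 to 1053 of 17793 to 18518. With the ATM inhibitor it gave 0, among 0 to 14 of 18120 to 18218. Between the lines it gave 6, among 7518 to 7735 of 19315 to 19497. There filterByExpr called 4, without SOX11 and SOX21, among 5090 of 13096. In regrouped HEK293T CPT 4 were called by DESeq2 and filterByExpr, without SOX11, and by no filter and the fit of all 32 libraries, without SOX9. Over all genes these fits called 2075 of 19464, 1461 of 12861, 2846 of 28891 and 2937 of 23638, in that order.
In regrouped U2OS ATM KO against WT, the likelihood ratio test and the fit of all 32 libraries called 1 member (SOX8), as did leaving out library 2, and the fit without a fold cutoff called 2 (SOX5 and SOX9). Over all genes these fits called 1176 of 18591, 1074 of 23638, 987 of 18518 and 2415 of 18591, in that order.
By the labels, mixing both lines in 1 control group, HEK293T CPT against HEK293T DMSO called 1 member (SOX8, lower), with SOX4 at -0.22, reversed, and 6 list genes. In all 1193 of 20676 genes were called there. U2OS ATM KO against U2OS WT by label called 2 members (SOX4 higher, SOX12 lower) and 2 list genes, among 631 of 19530 genes.
Over the lists, filterByExpr, which tests fewer genes, called 11 in regrouped HEK293T CPT and 4 in regrouped U2OS ATM KO, and no fold cutoff called 12 in the latter, in place of 18 and 7. With the ATM inhibitor, leaving out 1 library gave 0 to 1. The other causes were not tested. No paired analysis was run, because the labels carry no replicate numbers shared between groups. Whether libraries with neighbouring numbers belong to 1 repeat is not stated. Any variation shared by a repeat counts as noise in these fits. SOX11, SOX21 and SOX8 rest on few counts, and 3 counts limit their detection.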
